A study of Mus musculus with 24 samples.

Results

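The expression of 10 genes that mark the vascular endothelium was followed through 24 mouse heart libraries: Cldn5, Cdh5, Pecam1, Kdr, Flt1, Tek, Tie1, Sox17, Sox18 and Nos3. The genes were fixed by name and found by their Ensembl identifiers, so they are 10 of the 52350 genes counted in each library, and all 10 passed the filter on low counts that left 15294 genes for testing. The series asks how a bout of treadmill running changes cardiac transcription at 2 times of day. Hearts came from male wild-type C57Bl/6 mice aged 12 weeks under a cycle of 12 h light and 12 h dark, and ZT (zeitgeber time) is the hour after the lights came on. The 4 groups of 6 mice were ZT12-EX (run as the dark, active phase began), ZT12-SED (sedentary, at that time), ZT0-EX (run as the light, resting phase began) and ZT0-SED (sedentary, at that time). Running mice had been accustomed to the treadmill and made 1 bout of 60 min at 10 m/min without incline. The labels used here do not give the interval between the bout and the removal of the heart. In each group replicates 1 to 3 were read on flow cell 1 and replicates 4 to 6 on flow cell 2. Each label names a separate biological replicate.

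Endothelial cells line every vessel of the heart and seal it with junctions between neighbouring cells. Tight junctions, built in part from claudins, limit what passes between the cells, and adherens junctions, built on VE-cadherin, hold them together. Growth factor signals through the VEGF receptors and the angiopoietin receptor Tie2 control whether the lining grows, stays quiet or becomes leaky, and SOXF transcription factors are needed to form and keep vessels. In the heart the dense capillary bed lies against the cardiomyocytes, so transcripts of the lining make up a small and mixed part of whole-heart RNA. A change in such RNA can reflect fewer endothelial cells or less transcript per cell, and these cannot be told apart here.

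Library totals ranged from 9697334 to 23067191 counts. Markers of cardiomyocytes and 20 further endothelial genes were found in every group, with no listed gene at 0. The summed level of the endothelial list lay between 1180 and 1540 CPM (reads relative to the library total, scaled by TMM) in ZT12-EX, 1228 and 1444 in ZT12-SED, 1264 and 1370.2 in ZT0-EX, and 1149.7 and 1399 in ZT0-SED. The libraries differed technically. The share of counts from the mitochondrial genome on flow cell 1 was 34.9% ± 2.17 in ZT12-EX, 49.7% ± 7.87 in ZT12-SED, 31.4% ± 1.72 in ZT0-EX and 30.7% ± 4.62 in ZT0-SED (SD, n = 3 each), and group means on flow cell 2 were 13.1% to 17.7%. The rank correlation across genes between transcript GC content and the level relative to the average library on flow cell 1 was -0.72 to -0.58 in ZT12-EX, -0.82 to -0.76 in ZT12-SED, -0.23 to -0.18 in ZT0-EX and -0.51 to 0.24 in ZT0-SED, and it was positive in all 12 libraries of flow cell 2. Replicates 1 and 2 of ZT12-SED and replicate 4 of ZT12-EX correlated least with the others. Replicate 4 of ZT12-EX had 2.70% mitochondrial counts and a summed cardiomyocyte marker level of 201732 CPM, against 36156 to 98888 CPM in the other libraries. Fast skeletal muscle transcripts were high in 6 libraries of flow cell 2: replicate 6 of ZT12-EX, replicate 6 of ZT12-SED, replicates 4, 5 and 6 of ZT0-EX and replicate 6 of ZT0-SED.

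Promoter sequences were available for 5 of the 10 genes, namely Cldn5, Flt1, Kdr, Tek and Tie1. Those of Cldn5 and of both VEGF receptor genes are shown. Cldn5 is the gene whose level differed most between groups, and the receptor genes took opposite signs by time of day. Each sequence runs from 250 bases before to 50 bases after the RefSeq start, from the GRCm38.p6 build. Cldn5 lies at chr16:18776597-18776896 on the plus strand, Kdr at chr5:75978406-75978705 on the minus strand and Flt1 at chr5:147725962-147726261 on the minus strand. Capitals mark the core of the motif of ETS factors, the family that includes the endothelial factors ERG and FLI1, as GGAA or, on the other strand, TTCC.
Cldn5: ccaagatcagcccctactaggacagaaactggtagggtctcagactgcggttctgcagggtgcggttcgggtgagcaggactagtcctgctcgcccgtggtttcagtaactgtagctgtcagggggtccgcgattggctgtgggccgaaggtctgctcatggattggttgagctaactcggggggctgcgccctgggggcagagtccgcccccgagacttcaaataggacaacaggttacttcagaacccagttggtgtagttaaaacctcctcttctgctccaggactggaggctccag
Kdr: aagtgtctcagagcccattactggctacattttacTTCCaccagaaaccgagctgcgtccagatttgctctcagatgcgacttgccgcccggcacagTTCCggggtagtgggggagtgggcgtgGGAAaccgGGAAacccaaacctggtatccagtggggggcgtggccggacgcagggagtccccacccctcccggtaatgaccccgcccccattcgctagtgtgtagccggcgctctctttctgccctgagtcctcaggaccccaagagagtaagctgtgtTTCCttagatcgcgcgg
Flt1: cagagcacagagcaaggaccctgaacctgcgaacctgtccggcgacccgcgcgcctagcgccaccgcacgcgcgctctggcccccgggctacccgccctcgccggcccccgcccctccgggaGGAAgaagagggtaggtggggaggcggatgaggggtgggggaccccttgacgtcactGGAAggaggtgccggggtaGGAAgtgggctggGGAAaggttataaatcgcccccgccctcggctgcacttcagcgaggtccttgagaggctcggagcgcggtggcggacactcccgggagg

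This core is short and 96.0% of 32851 promoters of the same length hold it. The Cldn5 window held none, the Kdr window 5, the Flt1 window 4, the Tek window 2 and the Tie1 window 9. Letters of clock-controlled elements were searched on both strands as well: the E-box CACGTG (in 7.15% of promoters), the D-box TTATGNAA (3.38%) and the core of the ROR element, AGGTCA, (16.3%). None of them occurred in the 5 windows, so no match overlapped an ETS core. The Cldn5 window held 2 copies of CCAAT, a box found in 37.4% of promoters on either strand. These matches describe the letters of the windows, and elements elsewhere were not searched.

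Set against each other per kilobase of exon (RPKM), the 10 genes differed widely in level. Averaged over the 24 libraries, Pecam1 was highest at 31.5 ± 8.98 RPKM, followed by Cdh5 at 19.3 ± 6.37, Tek at 15.8 ± 3.82, Tie1 at 14.9 ± 7.12, Cldn5 at 12.2 ± 10.6 and Kdr at 11.3 ± 3.57 (SD, n = 24). Sox18 followed at 8.37 ± 5.48 RPKM, Flt1 at 8.34 ± 2.32, Nos3 at 7.58 ± 4.11 and Sox17 at 1.70 ± 0.71. Pecam1 led and Sox17 came last in all 4 groups. Taken as mean ± SD, the ranges of Pecam1 and Cdh5, next in order, did not overlap in ZT12-EX or ZT0-EX. They overlapped in ZT12-SED and ZT0-SED. Single hearts overlapped in the exercised groups as well. The lowest Pecam1 and highest Cdh5 values were 25.5 and 27.3 RPKM in ZT12-EX, and 29.9 and 30.2 RPKM in ZT0-EX. Ranges of mean ± SD of neighbours from the second to the ninth place overlapped in every group. These SDs run over both flow cells, so they hold the difference between flow cells as well as the spread between hearts. Cldn5 in ZT0-EX, for example, had 8.67 ± 1.55 CPM on flow cell 1 and 33.2 ± 0.53 CPM on flow cell 2 (SD). Ranges of this kind did not separate neighbours there. Cldn5 stood at the ninth place in ZT12-SED, with a mean of 4.83 RPKM, against the third place in ZT0-SED, with 17.5 RPKM. Flt1, the ninth gene in ZT0-EX and ZT0-SED, did not overlap with Sox17 there.

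**Figure D1:**
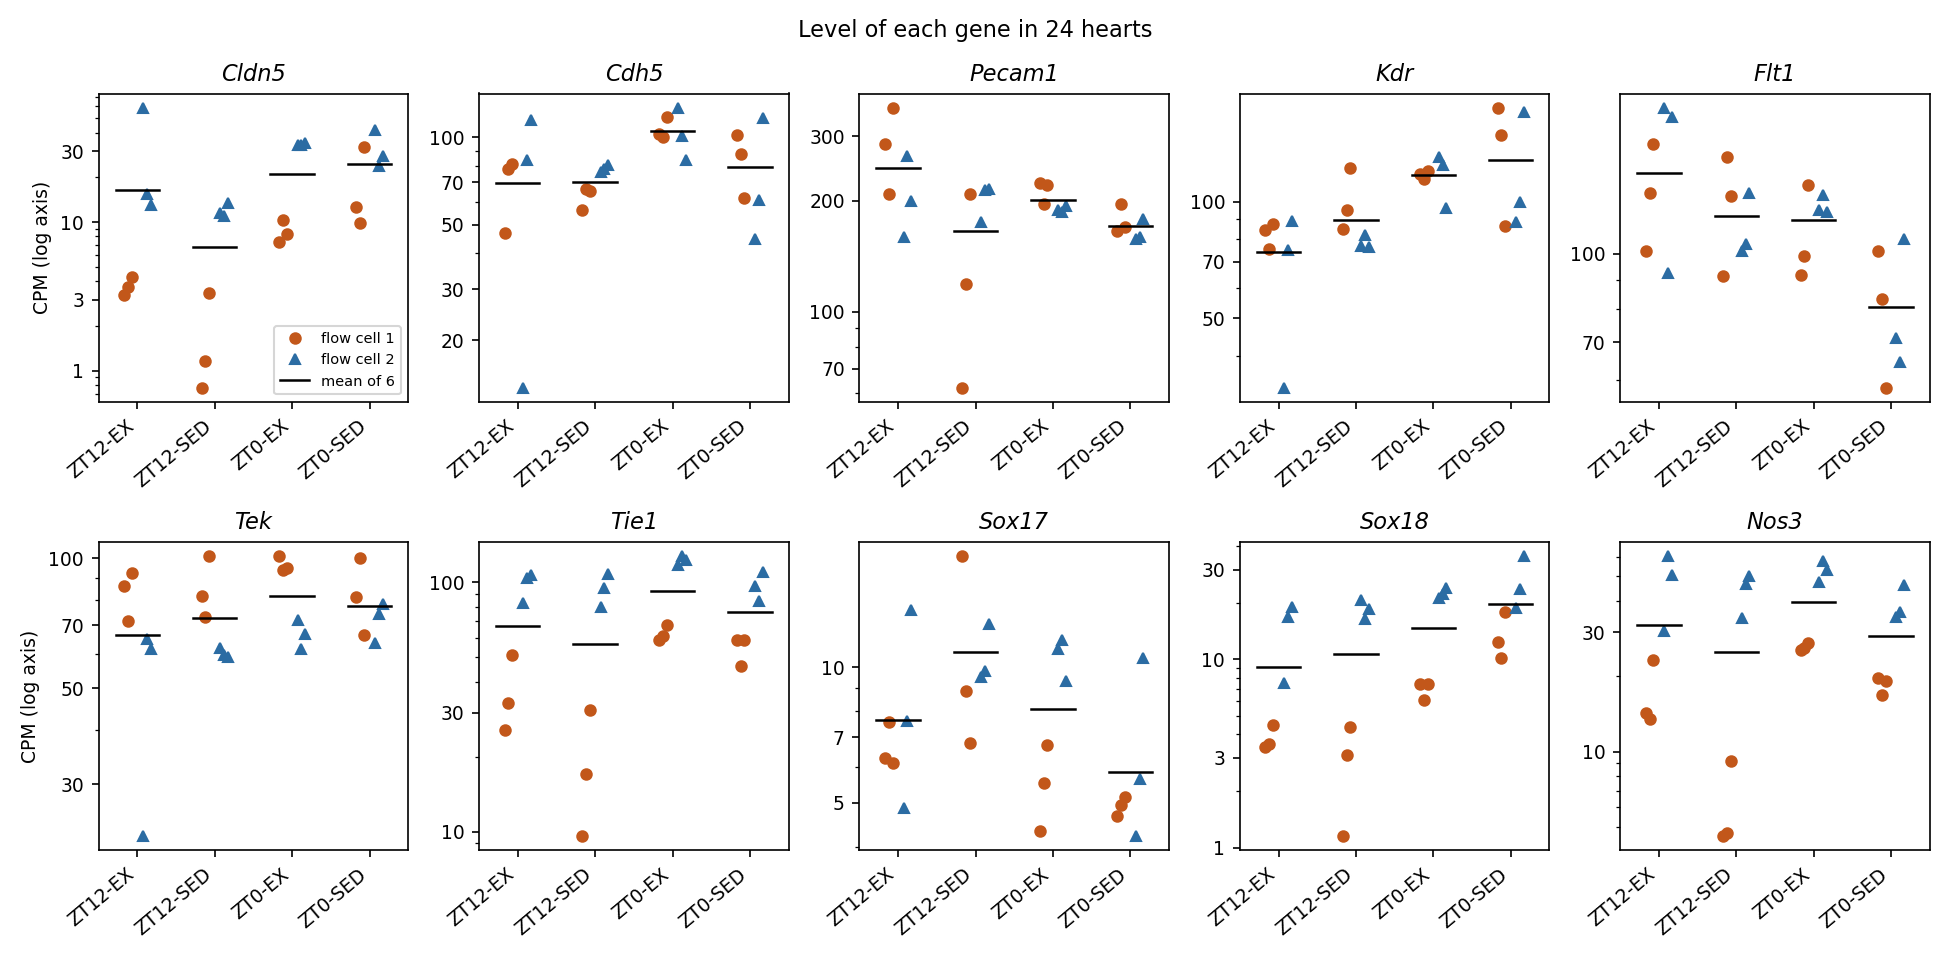
Level of each gene in CPM (log axis) in the 24 libraries, by group on the horizontal axis, with circles for flow cell 1, triangles for flow cell 2 and a bar for the mean of 6. Replicates 1 and 2 of ZT12-SED, both on flow cell 1, hold the lowest Cldn5 values of all 24 libraries, 0.767 and 1.16 CPM, and the lowest Tie1 values, 9.59 and 17.1 CPM.

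Flow cell was a large source of spread among these genes. Between flow cells, 68.1% of all tested genes differed by edgeR's quasi-likelihood test at an adjusted p below 0.05, and 6 of the 10 genes did. Cldn5 was higher on flow cell 2 than on flow cell 1 by 2.03 ± 0.30 on the log2 scale (SE), Sox18 by 1.75 ± 0.20, Nos3 by 1.55 ± 0.20, Tie1 by 1.36 ± 0.19 and Sox17 by 0.44 ± 0.18. Tek was lower there (-0.50 ± 0.13). Cdh5, Pecam1, Kdr and Flt1 did not pass, with values from -0.22 to 0.06. The 4 genes with the largest differences were those with the most GC in their transcripts: Sox18 at 60.9%, Cldn5 at 60.5%, Nos3 at 58.2% and Tie1 at 57.6%. Sox18 and Cldn5 stood at the 97.6th and 96.9th percentile of GC content among tested genes. Flow cell was a term of every fit unless stated, and differences within each flow cell are given beside the fitted ones.

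Cldn5, Sox18 and Sox17 changed with time of day in sedentary mice. Cldn5, which encodes claudin-5, the main tight junction claudin of the endothelium, fell at ZT12, and so did Sox18, a SOXF transcription factor of blood and lymphatic vessels. Sox17, its relative with a role in arterial identity, rose. These 3 of 10 genes passed the threshold (adjusted p below 0.05), 1 higher and 2 lower, where 5.2% of all genes passed, 2.46% higher and 2.74% lower. At an unadjusted p below 0.05 there were 6 of 10, where 33% of all genes passed. DESeq2 called 5 of 10, where it called 22.1% of all genes. By edgeR none of the 10 passed on flow cell 2 alone, where 0.231% of all genes did. With no flow cell term none passed either, where 0.843% of all genes did. The calls of Sox18 and Sox17 also depended on other settings, as given below.

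Cldn5 had 0.767, 1.16 and 3.34 CPM in the ZT12-SED hearts of flow cell 1 and 11.4, 10.9 and 13.4 CPM in those of flow cell 2. The ZT0-SED hearts had 12.7, 9.87 and 32.2 CPM on flow cell 1 and 41.9, 23.8 and 27.9 CPM on flow cell 2. The groups did not overlap on either flow cell, with every ZT12-SED value below every ZT0-SED value of its own flow cell. Cldn5 was the only 1 of the 10 genes with this separation and a lower level, which 2.57% of all tested genes had. The lowest value rests on 4 reads in replicate 1 of ZT12-SED, and the exact Poisson interval at 95% reaches from 0.209 to 1.96 CPM, for counting error only. The fitted log2 fold change was -2.35 ± 0.43 (edgeR adjusted p = 0.00203). Flow cell 1 gave a difference of mean log2 CPM of -3.34, and flow cell 2 gave -1.35. Cldn5 passed in all 24 fits that each left out 1 library, with values from -2.56 to -1.87. With offsets that remove the trend of each library with GC content it was -1.59 ± 0.29 (edgeR adjusted p = 0.0015), and without the 3 least correlated libraries -1.88 ± 0.31 (edgeR adjusted p = 0.000988). Flow cell 2 fitted alone gave -1.40 ± 0.49 (edgeR adjusted p = 0.665), and flow cell 1 alone gave -3.21 ± 0.49 (edgeR adjusted p = 0.00113). All 24 libraries fitted with no flow cell term gave -1.83 ± 0.72, which did not pass (edgeR adjusted p = 0.317).

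Cdh5 and Pecam1, the other junction genes, did not share the difference. Cdh5, which encodes VE-cadherin of the adherens junction, had a lowest, median and highest value of 56.0, 71.0 and 80.1 CPM in ZT12-SED, against 44.7, 74.6 and 117 CPM in ZT0-SED. Its log2 fold change was -0.17 ± 0.31 (edgeR adjusted p = 0.708), and the ZT12-SED values all lay inside the ZT0-SED range. Pecam1, an adhesion molecule concentrated at endothelial contacts, had 62.1, 192 and 215 CPM in ZT12-SED, against 158, 168 and 197 CPM in ZT0-SED, with a log2 fold change of -0.05 ± 0.23 (edgeR adjusted p = 0.907). Its ZT12-SED spread came from replicates 1 and 2, at 62.1 and 119 CPM, below every ZT0-SED heart. The other 4 ZT12-SED hearts, at 175 CPM or more, lay above 4 of the 6 ZT0-SED hearts.

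The VEGF receptor genes took opposite signs. Kdr encodes VEGFR2, the main signalling receptor for VEGF-A, and Flt1 encodes VEGFR1, which binds VEGF-A tightly and also occurs as a soluble form that gene counts cannot separate. Kdr had 76.4, 83.3 and 122 CPM in ZT12-SED, against 86.4, 124 and 175 CPM in ZT0-SED, a log2 fold change of -0.52 ± 0.21 (edgeR adjusted p = 0.0973). Flt1 had 91.3, 115 and 148 CPM in ZT12-SED, against 58.2, 77.3 and 106 CPM in ZT0-SED, a log2 fold change of 0.53 ± 0.19 (edgeR adjusted p = 0.0785). Neither passed the threshold and the groups overlapped for both. The sign was the same on both flow cells for each, -0.40 within flow cell 1 and -0.55 within flow cell 2 for Kdr, and 0.60 and 0.49 for Flt1. The difference between the pair was not tested. Flt1 passed with the offsets for GC content (0.64 ± 0.18, edgeR adjusted p = 0.0497), and Kdr with 2 surrogate variables added (-0.69 ± 0.10, edgeR adjusted p = 0.000128).

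Tek and Tie1 encode the angiopoietin receptor Tie2 and its partner receptor, which binds Tie2 and modulates its signal. Tek had 59.2, 67.7 and 101 CPM in ZT12-SED, against 63.7, 76.2 and 100.3 CPM in ZT0-SED (log2 fold change -0.11 ± 0.19, edgeR adjusted p = 0.686). Tie1 had 9.59, 55.4 and 108 CPM in ZT12-SED, against 46.2, 71.7 and 109.9 CPM in ZT0-SED (log2 fold change -0.71 ± 0.26, edgeR adjusted p = 0.0801). The low Tie1 values were all on flow cell 1, at 9.59 to 30.9 CPM in ZT12-SED and 46.2 to 58.9 CPM in ZT0-SED. The groups did not overlap there. On that flow cell 4 of the 10 genes were lower without overlap, where 29.3% of all genes were. On flow cell 2 Tie1 had 79.9 to 108 CPM in ZT12-SED and 84.5 to 109.9 CPM in ZT0-SED, with a difference of mean log2 CPM of -0.05. With the offsets for GC content the fitted value was -0.16 ± 0.13 (edgeR adjusted p = 0.529).

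Sox18 and Sox17 moved in opposite directions. Sox18 had 1.15, 3.11 and 4.37 CPM in ZT12-SED on flow cell 1 and 20.6, 16.3 and 18.5 CPM on flow cell 2. ZT0-SED had 12.4, 10.2 and 17.9 CPM on flow cell 1 and 18.8, 23.8 and 35.5 CPM on flow cell 2. The groups were apart on flow cell 1, as for 29.3% of all genes in that direction, and overlapped on flow cell 2. The log2 fold change was -1.27 ± 0.29 (edgeR adjusted p = 0.0119), and the difference of mean log2 CPM was -2.33 within flow cell 1, against -0.45 within flow cell 2. Sox18 passed in all 24 fits that left out 1 library but not with the offsets for GC content, which gave -0.56 ± 0.22 (edgeR adjusted p = 0.163). Sox17 had 17.6, 8.83 and 6.78 CPM in ZT12-SED on flow cell 1 and 9.49, 9.81 and 12.4 CPM on flow cell 2. ZT0-SED had 4.68, 4.93 and 5.14 CPM on flow cell 1 and 4.22, 5.65 and 10.5 CPM on flow cell 2. The groups were apart on flow cell 1, as for 24.3% of all genes in that direction. The groups overlapped on flow cell 2 through 1 ZT0-SED heart. The log2 fold change was 0.90 ± 0.26 (edgeR adjusted p = 0.0465), against differences of 1.03 within flow cell 1 and 0.73 within flow cell 2, and it was 1.22 ± 0.32 with the offsets for GC content (edgeR adjusted p = 0.0355). Without the highest library, replicate 1 of ZT12-SED, it was 0.64 ± 0.23 (edgeR adjusted p = 0.135), and Sox17 passed in 6 of the 24 fits that left out 1 library. It did not pass without the 3 least correlated libraries (0.54, edgeR adjusted p = 0.176), with 2 surrogate variables (0.45, edgeR adjusted p = 0.263) or with limma-voom (adjusted p = 0.0554), and with the compared groups fitted alone neither Sox17 (edgeR adjusted p = 0.103) nor Sox18 (edgeR adjusted p = 0.083) passed.

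Nos3 encodes endothelial nitric oxide synthase, which makes the nitric oxide that relaxes vessels. It had 4.60, 21.7 and 50.03 CPM in ZT12-SED, against 16.9, 27.1 and 46.4 CPM in ZT0-SED (log2 fold change -0.56 ± 0.28, edgeR adjusted p = 0.159). On flow cell 1 all ZT12-SED hearts, at 4.60 to 9.20 CPM, lay below all ZT0-SED hearts, at 16.9 to 19.7 CPM. Of all genes, 29.3% were lower without overlap there. On flow cell 2 the hearts had 34.2 to 50.03 CPM in ZT12-SED and 34.5 to 46.4 CPM in ZT0-SED and overlapped. With the offsets for GC content the fitted value was -0.01 ± 0.19 (edgeR adjusted p = 0.982).

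The size of the differences on flow cell 1 went with GC content in all genes. Over 15288 tested genes with a known GC content, the Spearman correlation between GC content and the ZT12-SED minus ZT0-SED difference was -0.80 within flow cell 1, against -0.06 within flow cell 2. Over the 10 genes the values were -0.66 and -0.21. Genes share libraries and are not independent replicates, so these values are descriptions. With the offsets 3.47% of all genes passed; Tie1 and Nos3 stood near 0, Sox18 did not pass, and Cldn5, Sox17 and Flt1 did. With 2 surrogate variables 5.33% of all genes passed, and Cldn5, Kdr and Sox18 did. On flow cell 1 alone 5 of the 10 genes passed (Cldn5, Tie1, Sox18 and Nos3 lower and Sox17 higher), where 43.5% of all genes did. On flow cell 2 alone none of the 10 passed by edgeR, where 0.231% of all genes did.

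**Figure D2:**
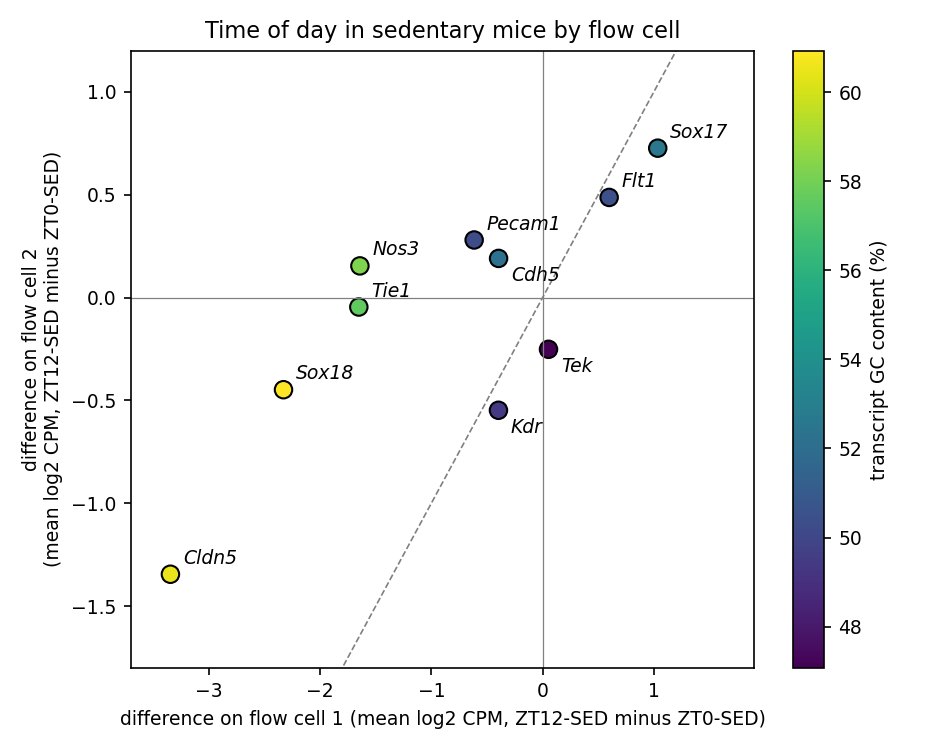
Difference between ZT12-SED and ZT0-SED in mean log2 CPM on flow cell 1 (horizontal) and flow cell 2 (vertical), 1 point a gene, 3 libraries a group on each flow cell, coloured by transcript GC content, with a dashed line where both are equal. Cldn5 is lowest on both, at -3.34 and -1.35, while Tie1 and Nos3 are low on flow cell 1 and near 0 on flow cell 2.

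**Figure D3:**
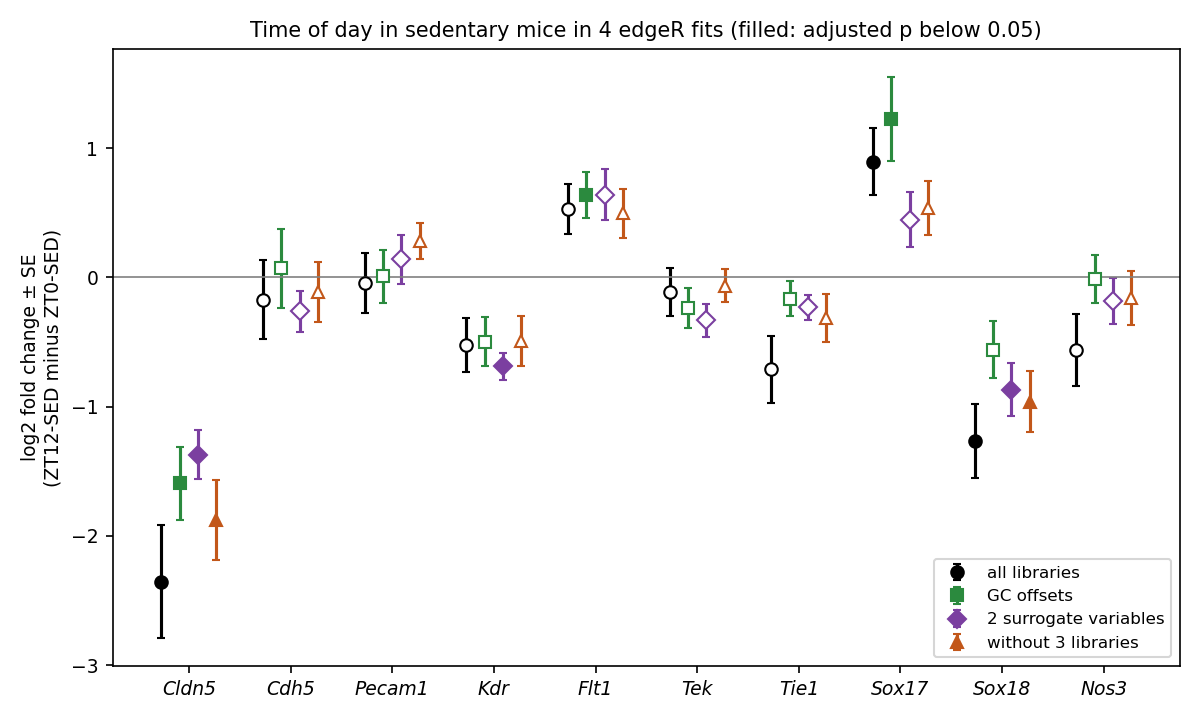
Log2 fold change of ZT12-SED over ZT0-SED with its SE in 4 edgeR fits for each gene, filled where the adjusted p is below 0.05. Cldn5 stays between -2.35 and -1.37 and filled in all 4 fits, and Sox18 is open with the offsets for GC content.

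In exercised mice no gene of the 10 passed between ZT12 and ZT0, where 1.65% of all genes did. At an unadjusted p below 0.05 there were 3, where 14.3% of all genes passed. DESeq2 called 1 (Kdr), where it called 3.5% of all genes, and limma-voom called 0. The fitted values of 8 of the 10 genes were negative, and their median was -0.49, against a median of 0.02 over all genes. The median of the 10 was -0.30 with the offsets for GC content, -0.24 with 2 surrogate variables and -0.12 with the offsets on flow cell 1 alone. Kdr was the clearest. It had 33.1, 80.0 and 89.1 CPM in ZT12-EX, against 96.1, 119 and 130.0 CPM in ZT0-EX. Every ZT12-EX heart lay below every ZT0-EX heart, a separation in this direction that 0.719% of all genes had. The log2 fold change was -0.67 ± 0.21 (edgeR adjusted p = 0.119; DESeq2 adjusted p = 0.0345). Without replicate 4 of ZT12-EX, the heart with 33.1 CPM, it was -0.52 ± 0.18 (edgeR adjusted p = 0.127).

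Tie1 and Sox18, like Kdr, were separated on each flow cell in exercised mice. Tie1 had 25.6 to 51.0 CPM in ZT12-EX and 59.0 to 67.6 CPM in ZT0-EX on flow cell 1, and 82.5 to 106.6 CPM in ZT12-EX and 117 to 128 CPM in ZT0-EX on flow cell 2. Sox18 had 3.42 to 4.46 CPM in ZT12-EX and 6.11 to 7.44 CPM in ZT0-EX on flow cell 1, and 7.46 to 18.95 CPM in ZT12-EX and 21.3 to 24.1 CPM in ZT0-EX on flow cell 2. So 3 of 10 genes were lower in ZT12-EX without overlap on each flow cell, and 2.79% of all genes were. The fitted log2 fold changes were -0.57 ± 0.25 for Tie1 (edgeR adjusted p = 0.306) and -0.75 ± 0.28 for Sox18 (edgeR adjusted p = 0.21). On flow cell 1 the difference went with GC content, with a Spearman correlation of -0.66 over all genes and -0.70 over the 10, against 0.18 and 0.02 on flow cell 2. With the offsets for GC content the fitted values were -0.66 ± 0.19 for Kdr (edgeR adjusted p = 0.0676), -0.27 ± 0.13 for Tie1 (edgeR adjusted p = 0.329) and -0.34 ± 0.21 for Sox18 (edgeR adjusted p = 0.444).

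Cldn5 in exercised mice turned on replicate 4 of ZT12-EX. It had 3.20, 3.66 and 4.28 CPM in ZT12-EX on flow cell 1 and 59.0, 15.5 and 13.0 CPM on flow cell 2. ZT0-EX had 7.29, 10.4 and 8.37 CPM on flow cell 1 and 33.0, 32.8 and 33.8 CPM on flow cell 2. The other 5 ZT12-EX hearts lay below the ZT0-EX hearts of their flow cell, and replicate 4 held the highest Cldn5 value of all 24 libraries. The log2 fold change was -0.62 ± 0.40 with it (edgeR adjusted p = 0.496) and -1.23 ± 0.33 without it (edgeR adjusted p = 0.0415). In the same library Cdh5 (13.7 CPM), Kdr (33.1 CPM) and Tek (22.7 CPM) were the lowest of all 24, and Flt1 (181 CPM) was the highest. It stood apart by mitochondrial share and cardiomyocyte markers as well, as given above, and the part of either in these levels was not tested.

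None of the remaining genes passed by time of day in exercised mice. Cdh5 had 13.7, 79.6 and 115 CPM in ZT12-EX, against 83.5, 102 and 127 CPM in ZT0-EX, with a log2 fold change of -0.59 ± 0.31 (edgeR adjusted p = 0.384). Pecam1 had 159, 237 and 359 CPM in ZT12-EX and 186, 195 and 224 CPM in ZT0-EX, and Flt1 had 92.7, 142 and 181 CPM in ZT12-EX and 91.9, 119 and 132 CPM in ZT0-EX. These were the genes with positive values, 0.29 ± 0.23 for Pecam1 (edgeR adjusted p = 0.599) and 0.27 ± 0.19 for Flt1 (edgeR adjusted p = 0.526). Tek at -0.31 ± 0.19, Nos3 at -0.41 ± 0.27 and Sox17 at -0.04 ± 0.26 did not pass.

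**Figure D4:**
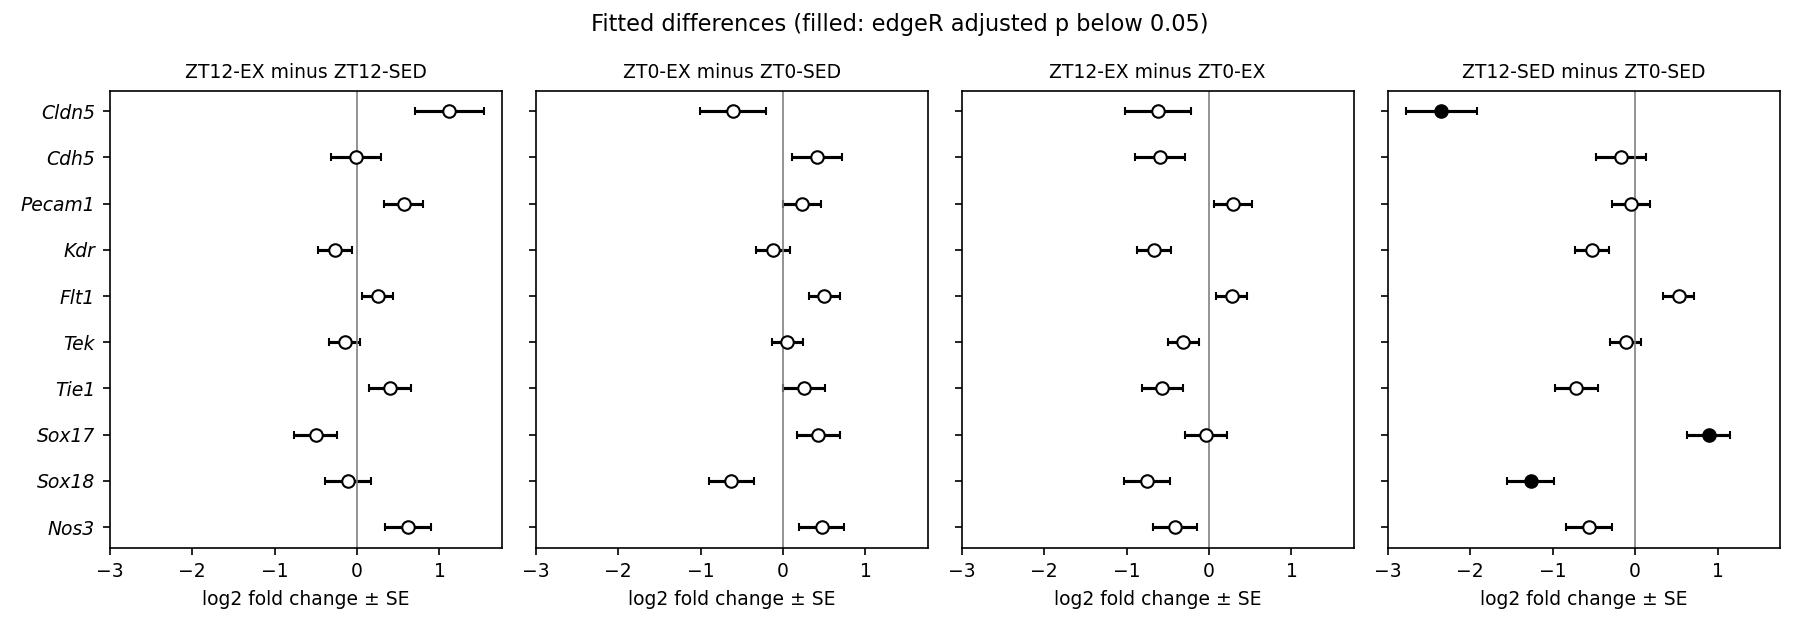
Fitted log2 fold change with its SE for the 10 genes in each comparison, from edgeR with all 24 libraries, filled where the adjusted p is below 0.05. The filled points are Cldn5 (-2.35), Sox18 (-1.27) and Sox17 (0.90) between ZT12-SED and ZT0-SED.

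A bout of running at ZT0 left none of the 10 genes past the threshold by edgeR, DESeq2 or limma-voom, where edgeR called 1.08% of all genes. DESeq2 called 1.75% of all genes. At an unadjusted p below 0.05 there were 2 of the 10, Flt1 higher and Sox18 lower, where 10.4% of all genes passed. Flt1 had 91.9, 119 and 132 CPM in ZT0-EX, against 58.2, 77.3 and 106 CPM in ZT0-SED (log2 fold change 0.50 ± 0.19, edgeR adjusted p = 0.342). On flow cell 2 all ZT0-EX hearts were above all ZT0-SED hearts, and on flow cell 1 the groups overlapped. Of all genes, 11.1% were higher without overlap on flow cell 2. Sox18 had 6.11, 14.4 and 24.1 CPM in ZT0-EX, against 10.2, 18.3 and 35.5 CPM in ZT0-SED (log2 fold change -0.63 ± 0.28, edgeR adjusted p = 0.441). The Sox18 groups were apart on flow cell 1 alone, where 9.81% of all genes were lower without overlap.

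Nos3 and Tie1 were higher in every ZT0-EX heart than in every ZT0-SED heart of the same flow cell. Nos3 had 25.4, 26.0 and 27.3 CPM in ZT0-EX and 19.7, 16.9 and 19.2 CPM in ZT0-SED on flow cell 1. On flow cell 2 it had 47.3, 57.6 and 53.0 CPM in ZT0-EX and 34.5, 36.2 and 46.4 CPM in ZT0-SED. Tie1 had 59.0 to 67.6 CPM in ZT0-EX and 46.2 to 58.9 CPM in ZT0-SED on flow cell 1, where the nearest hearts all but touched. On flow cell 2 it had 117 to 128 CPM in ZT0-EX and 84.5 to 109.9 CPM in ZT0-SED. Of all tested genes, 3.02% were higher without overlap on each flow cell. The fitted log2 fold changes were 0.47 ± 0.27 for Nos3 (edgeR adjusted p = 0.535) and 0.26 ± 0.25 for Tie1 (edgeR adjusted p = 0.68). Fitted to the ZT0 groups alone, whose spread was smaller, Nos3 passed at 0.45 ± 0.10 (edgeR adjusted p = 0.0252). Fast skeletal muscle transcripts were high in all 3 ZT0-EX libraries of flow cell 2 and in 1 of the 3 ZT0-SED libraries there, and their part in the difference was not tested. On flow cell 1, where those transcripts were low in both groups, the difference of mean log2 CPM was 0.49 for Nos3 and 0.20 for Tie1.

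The junction genes showed no shared direction with exercise at ZT0. Cldn5 had 7.29, 21.6 and 33.8 CPM in ZT0-EX, against 9.87, 25.9 and 41.9 CPM in ZT0-SED (-0.61 ± 0.40, edgeR adjusted p = 0.567). Cdh5 had 83.5, 102 and 127 CPM in ZT0-EX, against 44.7, 74.6 and 117 CPM in ZT0-SED (0.41 ± 0.31, edgeR adjusted p = 0.602). Pecam1 had 186, 195 and 224 CPM in ZT0-EX, against 158, 168 and 197 CPM in ZT0-SED (0.23 ± 0.23, edgeR adjusted p = 0.68). Kdr at -0.12 ± 0.21, Tek at 0.05 ± 0.19 and Sox17 at 0.43 ± 0.26 did not pass.

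Running at ZT12 also left none of the 10 past the threshold by edgeR, DESeq2 or limma-voom, where edgeR called 0.294% of all genes. DESeq2 called 1.51% of all genes. The unadjusted p was below 0.05 for 3 of the 10, Cldn5, Pecam1 and Nos3, all higher in ZT12-EX, where 16.4% of all genes passed. Cldn5 had 3.20, 8.64 and 59.0 CPM in ZT12-EX, against 0.767, 7.12 and 13.4 CPM in ZT12-SED (log2 fold change 1.12 ± 0.42, edgeR adjusted p = 0.241). Without replicate 4 of ZT12-EX it was 0.45 ± 0.34 (edgeR adjusted p = 0.556), and without the 3 least correlated libraries 0.11 ± 0.31 (edgeR adjusted p = 0.997). Pecam1 had 159, 237 and 359 CPM in ZT12-EX, against 62.1, 192 and 215 CPM in ZT12-SED (0.56 ± 0.23, edgeR adjusted p = 0.267). Its difference of mean log2 CPM was 1.26 within flow cell 1, against 0.02 within flow cell 2. Nos3 had 13.5, 26.7 and 60.3 CPM in ZT12-EX, against 4.60, 21.7 and 50.03 CPM in ZT12-SED (0.62 ± 0.28, edgeR adjusted p = 0.283). For Nos3 the values were 1.47 and 0.07. Both genes were thus apart on flow cell 1, where 13.2% of all genes were higher without overlap, and close on flow cell 2. For Pecam1 the nearest hearts of flow cell 1 all but touched, at 208.5 CPM in ZT12-EX and 208.3 CPM in ZT12-SED. On flow cell 1 the mitochondrial share was 34.9% in ZT12-EX and 49.7% in ZT12-SED, and its part in these differences was not tested. There the Spearman correlation over all genes between GC content and the difference was 0.66. With the offsets for GC content the fitted values were 0.73 ± 0.28 for Cldn5, 0.53 ± 0.21 for Pecam1 and 0.36 ± 0.19 for Nos3 (edgeR adjusted p = 0.288, 0.29 and 0.413), and the median of the 10 genes was 0.01, against 0.12 without them.

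The other 7 genes did not pass at ZT12 at either threshold. Sox17 had 4.87, 6.93 and 13.4 CPM in ZT12-EX, against 6.78, 9.65 and 17.6 CPM in ZT12-SED, with a log2 fold change of -0.50 ± 0.26 (edgeR adjusted p = 0.327). The log2 fold change was 0.40 ± 0.26 for Tie1, -0.27 ± 0.21 for Kdr, 0.25 ± 0.19 for Flt1, -0.15 ± 0.19 for Tek, -0.11 ± 0.28 for Sox18 and -0.01 ± 0.31 for Cdh5. Over these 7 genes the edgeR adjusted p ranged from 0.327 to 0.99.

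Whether the bout acted differently at ZT12 and ZT0 was tested as the difference between the exercise effects. None of the 10 genes passed by edgeR, DESeq2 or limma-voom, and by edgeR 0% of all genes did and by DESeq2 0.0327%. At an unadjusted p below 0.05 there were 2 of the 10, where 8.02% of all genes passed. Cldn5 had the largest value, 1.73 ± 0.58 (edgeR adjusted p = 0.571), made of 1.12 at ZT12 and -0.61 at ZT0, and it was 1.00 ± 0.46 without replicate 4 of ZT12-EX (edgeR adjusted p = 0.892). Sox17 had -0.93 ± 0.36 (edgeR adjusted p = 0.571), made of -0.50 at ZT12 and 0.43 at ZT0.

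The genes that work with these 10 were followed through lists of related function. The 16 junction partners include the scaffold gene Tjp1, the catenin gene Ctnnb1 and the adhesion gene Jam2. None of them passed in any of the 4 comparisons by edgeR. With offsets for GC content 1 was lower by time of day in sedentary and 1 in exercised mice. With those offsets 3.47% and 2.64% of all genes passed. The count at an unadjusted p below 0.05 was 6 of 16 by time of day in sedentary mice and 4 in exercised mice, where 33% and 14.3% of all genes passed. It was 1 with exercise at ZT12 and 0 at ZT0, where 16.4% and 10.4% did. Their median was 0.07 between ZT12-SED and ZT0-SED, against -0.35 for the 10 genes and -0.01 over all genes. The median of the 10 genes was -0.09 with the offsets for GC content, and it was -0.51 within flow cell 1, against 0.05 within flow cell 2. Of 10 VEGF and angiopoietin ligands and co-receptors, Angpt2 fell in ZT12-SED against ZT0-SED. It encodes the antagonist ligand of Tie2. Its log2 fold change was -0.97 ± 0.23 (edgeR adjusted p = 0.0158), and the groups did not overlap. In that direction 2.74% of all genes were called, and 0.811% showed no overlap. Vegfd, a VEGF ligand best known for its part in lymphatic growth, rose in ZT12-EX against ZT0-EX (0.88 ± 0.20, edgeR adjusted p = 0.0231). Of all genes, 0.811% were called higher there. Without the 6 libraries with skeletal muscle transcripts Vegfd did not pass (0.82, edgeR adjusted p = 0.219). That fit left out every ZT0-EX library of flow cell 2. In it 0.551% of all genes passed between ZT12-EX and ZT0-EX, against 1.65% with all libraries. By time of day in sedentary mice 2.46% of all genes were called higher and 2.74% lower. Of 16 Notch, arterial and flow-responsive genes, 1 rose and 1 fell there. These were Nr2f2, a factor of venous identity, at 0.80 ± 0.24 (edgeR adjusted p = 0.04996), and Heyl, a Notch target, at -0.89 ± 0.24 (edgeR adjusted p = 0.038). Of 9 nitric oxide pathway genes tested, Prkg1, the cGMP-dependent kinase gene, rose there (0.92 ± 0.25, edgeR adjusted p = 0.0388). With the offsets for GC content Angpt2 and Vegfd still passed and Heyl, Nr2f2 and Prkg1 did not.

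Of 20 further endothelial genes, 1 rose and 1 fell with exercise at ZT0, where 1.08% of all genes were called, and 1 rose and 1 fell by time of day in sedentary mice, where 5.2% were. S1pr1, the sphingosine phosphate receptor that steadies endothelial junctions, rose in ZT0-EX against ZT0-SED without overlap (1.08 ± 0.25, edgeR adjusted p = 0.0268). S1pr1 also rose in ZT12-SED against ZT0-SED (0.93 ± 0.25, edgeR adjusted p = 0.0317), and these comparisons share the ZT0-SED hearts. Myct1, an endothelial gene, fell in ZT0-EX without overlap (-0.87 ± 0.20, edgeR adjusted p = 0.0273). With exercise at ZT0, 0.987% of all genes were higher and 0.608% lower without overlap. Egfl7, a secreted endothelial factor, fell in ZT12-SED (-1.09 ± 0.31, edgeR adjusted p = 0.0416) but not with the offsets for GC content (-0.46, adjusted p = 0.161). S1pr1 and Myct1 passed with those offsets. Without the 6 libraries with skeletal muscle transcripts neither passed with exercise at ZT0 (0.95, edgeR adjusted p = 0.467, and -1.14, edgeR adjusted p = 0.0583). That fit left out every ZT0-EX library of flow cell 2. In it 0.327% of all genes passed with exercise at ZT0, against 1.08% with all libraries. Fewer libraries and fewer skeletal muscle transcripts cannot be told apart there.

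Outside the 10 genes, those whose levels followed the mean of the 10 most closely were Mink1, Arhgap23, Unc5b, Ntng2 and Ppm1f. Pearson r with the mean of the 10 scaled profiles was 0.953, 0.95, 0.945, 0.941 and 0.939 over 24 libraries, after subtraction of each flow cell's mean. These libraries share the technical differences given above, and the values carry no test. The 10 genes themselves did not all move together. After subtraction of each group's mean on each flow cell, 38 of their 45 pairs had a positive Pearson r. The values ran from -0.62 for Cldn5 with Cdh5 to 0.88 for Cdh5 with Kdr, with a median of 0.36.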

How the data were processed

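Whole-heart poly-A RNA was sequenced from 24 mice after TruSeq library construction. The deposited files hold raw read counts per Ensembl gene. Per the submitters' processing notes, Trimmomatic 0.39, HISAT2 2.2.1 and featureCounts 2.0.1 were used with the GRCm39 build. The labels give no annotation release, strand use or counting settings. Symbols, lengths and GC content came from GENCODE M21 (GRCm38) by gene identifier, and 257 identifiers with 0.00128% of counts had no symbol.

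The 10 genes and all lists were chosen with earlier results of these data known. Genes passing filterByExpr were scaled by TMM and tested with edgeR 4.0.16 (quasi-likelihood, group plus flow cell, 24 libraries, 19 residual degrees of freedom) in R 4.3.3, with Benjamini-Hochberg adjustment over all 15294 genes and a threshold of 0.05. Steps were tested on simulated counts with known changes. Those counts held no flow cell difference and no trend with GC content, so they do not show how the fits handle either. Every list gene past the threshold could be named, at most 4 per list and comparison, and the most alike genes were the 5 with the highest r. P-values measure the spread between these hearts. No libraries in a group agreed within sampling noise (lowest chi-square per degree of freedom 13.3 over 60 pairs). A count of 0 allows up to 3 counts, or 0.575 CPM in the shallowest library, and intervals cover counting error only. Fits with all groups share 1 spread, though the median residual SD over genes was 0.501 at ZT12 and 0.355 at ZT0 on the log2 scale.

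Alternatives were DESeq2 1.42.0 (test and size factors), limma-voom 3.58.1, library totals without TMM, mitochondrial transcripts left out, no or a stricter filter on low counts, flow cells or compared groups alone, no flow cell term, a replicate block, offsets for GC content (lowess), 2 surrogate variables (sva 3.50.0), and libraries left out. Combinations with the GC offsets were chosen after seeing the data.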

Additional observations from a re-analysis of the deposited data

Results flagged for a closer look

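Each of the 10 genes was checked by Dixon's criterion in each of the 4 groups of 6 hearts, 40 sets in all. In 3 of the 40 sets 1 heart lay far from the other 5. Chance alone gives this in about 1 of 20 independent sets with 1 common spread. These sets share the same hearts and pool both flow cells, so that rate is only a rough guide. Kdr in replicate 4 of ZT12-EX stood at 5.05 log2 CPM (33.1 CPM), against 75.0 to 89.1 CPM in the other ZT12-EX hearts. Tek in the same heart stood at 4.51 log2 CPM (22.7 CPM), against 61.6 to 92.5 CPM in the others. Sox17 in replicate 6 of ZT0-SED stood at 3.40 log2 CPM (10.5 CPM), against 4.22 to 5.65 CPM in the other ZT0-SED hearts, and this heart is the 1 that overlaps with ZT12-SED.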

How the results depend on the processing

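Cldn5, Sox18 and Sox17, called by time of day in sedentary mice, kept their sign there in every alternative run. Nos3, called lower on flow cell 1 alone, was at 0.15 on flow cell 2 alone. By time of day in sedentary mice 3 genes passed the threshold, where 5.2% of all genes did. The count was 1 with library totals without TMM (1.53% of all genes), 5 with DESeq2 (22.1%) and 0 without a flow cell term (0.843%). It was 5 on flow cell 1 alone (43.5%), 0 on flow cell 2 alone (0.231%) and 1 with the compared groups alone (1.69%). It was 4 without the 6 libraries with skeletal muscle transcripts (20.1%). The count was 2 with limma-voom (5%), with no filter on low counts (1.51%) and without the 3 least correlated libraries (2.79%). With GC offsets it was 0 on flow cell 2 alone (0.27%) and 1 without the 3 least correlated libraries (3.79%). GC offsets with the replicate block in place of flow cell gave 2 (3.28%). Leaving out each library in turn gave 2 to 6, with 6 without replicate 4 of ZT12-EX, where 21.2% of all genes passed. In exercised mice the count by time of day was 0, with 1.65% of all genes called. It became 1 with DESeq2 (3.5% of all genes), 3 with 2 surrogate variables (9.04%), 1 without the 3 least correlated libraries (6.49%), 3 with GC offsets and 2 surrogate variables (8.61%) and 1 with GC offsets without those libraries (5.48%), and leaving out each library gave 0 to 1. With exercise at ZT0 it was 0, with 1.08% of all genes called. It became 1 with the compared groups alone (2.83%), 2 with 2 surrogate variables (3.33%), 1 with GC offsets and 2 surrogate variables (3.15%) and 2 with GC offsets without the 3 libraries (4.45%). The cause of these differences was not tested. With exercise at ZT12, and for the difference between exercise effects, the count was 0 in every alternative. Library totals without TMM moved the median of all genes by time of day in sedentary mice to -0.18. Deviations of same-numbered hearts correlated at -0.45 to 0.78 over 36 pairs, with a median of 0.01 and 15 pairs above 0.1. Hearts of other numbers on the same flow cell correlated at -0.75 to 0.44 over 72 pairs, with a median of -0.02 and 20 above 0.1. These values do not settle whether equal replicate numbers pair the hearts. With the replicate block in place of flow cell 3 genes passed by time of day in sedentary mice and 0 in the other comparisons, and Cldn5 was at -2.27. Depth limits Cldn5 most, at 4 reads in its lowest library.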

Other observations

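Genes of other vascular and stromal cells were followed in the same fits, with calls by edgeR. Lyve1, a receptor of lymphatic endothelium and of some macrophages, rose in ZT12-SED against ZT0-SED (1.24 ± 0.25, adjusted p = 0.00446), and was the 1 of 6 lymphatic genes to pass. It also passed with offsets for GC content (1.06) and without the 3 least correlated libraries (1.26). Of the 6 lymphatic genes 3 had negative values by time of day in sedentary mice, where 5.2% of all genes passed. Rgcc, a capillary gene, rose in ZT0-EX against ZT0-SED (0.82 ± 0.20, adjusted p = 0.0457), and was the 1 of 8 capillary genes to pass. It did not pass without the 6 libraries with skeletal muscle transcripts (0.95, adjusted p = 0.221). That fit held no ZT0-EX library of flow cell 2, and 0.327% of all genes passed in it. Of the 8 capillary genes 3 had negative values with exercise at ZT0, where 1.08% of all genes passed.

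Among mural and stromal genes, Vtn (1 of 8 pericyte genes, -1.07 ± 0.28, adjusted p = 0.0296) and Acta2 (1 of 6 smooth muscle genes, -1.08 ± 0.27, adjusted p = 0.0233) fell in ZT12-SED against ZT0-SED. Both passed with the GC offsets and neither passed without the 3 least correlated libraries (adjusted p = 0.104 for Vtn and 0.108 for Acta2). Values were positive for 2 of the 8 pericyte genes and 1 of the 6 smooth muscle genes by time of day in sedentary mice. Of all genes, 2.74% were called lower there, and 0.837% were called lower in ZT12-EX against ZT0-EX. Of 8 fibroblast genes, 2 fell and none rose in ZT12-EX against ZT0-EX, while 5 of the 8 had positive values and the median was 0.07. These were the collagen genes Col1a1 (-1.27 ± 0.23, adjusted p = 0.00279) and Col3a1 (-0.98 ± 0.26, adjusted p = 0.0473), and with the GC offsets Col1a1 passed (-0.86, adjusted p = 0.0492) and Col3a1 did not (-0.84, adjusted p = 0.109). Both also fell in ZT12-SED against ZT0-SED (-0.98 ± 0.23 for Col1a1 and -0.85 ± 0.25 for Col3a1), and neither passed there with the GC offsets (-0.27, adjusted p = 0.562, and -0.58, adjusted p = 0.245). Tcf21, a fibroblast transcription factor gene, fell in ZT0-EX against ZT0-SED (-0.94 ± 0.21, adjusted p = 0.027). It did not pass without the 6 libraries with skeletal muscle transcripts (-0.57, adjusted p = 0.569), where 0.327% of all genes passed.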
